A study of Mus musculus with 16 samples.

Results

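Transcripts of 9 autophagy and mitophagy genes were followed through 4 treatment groups of mouse mammary tumours, 16 tumours in all and 4 a group. The genes were chosen by name: Sqstm1, Map1lc3a, Map1lc3b, Becn1, Ulk1, Atg5, Atg7, Atg12, Pink1 and Bnip3l. Of these 10, 9 were found among the 55146 genes of the table, and all 9 passed the filter that kept 15105 genes for testing. Map1lc3b was not analysed here. The tumours arose in MMTV-PyMT donors, 12 weeks old per the labels, in which the mouse mammary tumour virus promoter drives the polyoma middle T antigen in mammary epithelium, and were reimplanted at mammary fat pad 4 in FVB mice, which were treated over 28 days. The combination group received 20 mg/kg sonidegib daily together with anti-PD-L1 antibody, of which 5 mg/kg was given 2 times weekly, the sonidegib group and the anti-PD-L1 group had 1 of these at the same dose, and the vehicle group had neither. Sonidegib is a Smoothened inhibitor, which blocks Hedgehog signalling, and PD-L1 is an immune checkpoint ligand. The series names the comparison of all groups as its primary one. No label ties a tumour to a donor mouse, so the spread behind the p-values is that between these 16 tumours and may be partly technical.

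Autophagy delivers parts of the cytoplasm to the lysosome. The ULK1 kinase complex starts it, and a lipid kinase complex that holds Beclin 1 (Becn1) marks the membrane from which the autophagosome grows. ATG7, an E1-like enzyme, then activates ATG12, which is joined to ATG5, and the ATG12-ATG5 conjugate promotes the attachment of LC3 proteins (Map1lc3a, Map1lc3b) to lipid. Cargo receptors such as p62 (Sqstm1) bind both ubiquitinated cargo and LC3. In mitophagy, the kinase PINK1 marks damaged mitochondria for removal, and BNIP3L (NIX) is a receptor on the outer mitochondrial membrane that is known as a hypoxia target. The pathway is regulated largely at the level of proteins, and mRNA levels do not measure its flux.

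Promoter sequences of RefSeq (GRCm38.p6) were at hand for 5 of the 9 genes, and 3 are shown because they belong to the gene that passed a test (Atg5), the most abundant transcript (Sqstm1) and the kinase gene whose mean was lower in every treated group than with vehicle (Ulk1). Each is the 250 bases before the RefSeq transcription start, 5′ to 3′ on the gene's strand. Capitals mark matches on either strand to CACGTG (the E-box at the centre of the CLEAR element bound by TFEB), ACGTG or GCGTG (cores of the hypoxia response element) or TGACNNNGC (the core of the antioxidant response element). The motif ACGTG overlaps CACGTG.
Atg5 (chr10:44268089-44268338, plus strand): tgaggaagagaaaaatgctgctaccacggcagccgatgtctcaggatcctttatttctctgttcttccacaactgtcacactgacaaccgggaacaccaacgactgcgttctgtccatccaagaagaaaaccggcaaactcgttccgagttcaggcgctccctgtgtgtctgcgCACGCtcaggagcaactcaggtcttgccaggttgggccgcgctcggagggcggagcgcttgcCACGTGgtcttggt
Sqstm1 (chr11:50210821-50211070, minus strand): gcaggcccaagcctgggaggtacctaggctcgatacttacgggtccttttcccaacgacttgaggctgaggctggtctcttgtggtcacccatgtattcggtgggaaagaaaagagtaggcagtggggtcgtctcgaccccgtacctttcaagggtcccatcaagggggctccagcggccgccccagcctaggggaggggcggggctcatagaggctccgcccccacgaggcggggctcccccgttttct
Ulk1 (chr5:110810082-110810331, minus strand): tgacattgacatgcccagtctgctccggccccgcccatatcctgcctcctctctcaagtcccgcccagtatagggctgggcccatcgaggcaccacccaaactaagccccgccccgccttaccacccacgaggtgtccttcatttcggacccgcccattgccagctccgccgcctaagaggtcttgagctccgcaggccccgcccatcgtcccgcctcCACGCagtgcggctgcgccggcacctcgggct
The Atg5 window held CACGTG 14 to 9 bases before the start, and GCGTG on the opposite strand (written CACGC above) 76 to 72 bases before it. The Ulk1 window held GCGTG on the opposite strand 32 to 28 bases before the start, and the Sqstm1 window held none of these letters. Of the windows not shown, that of Atg7 also held CACGTG, 132 to 127 bases before the start. That of Pink1 held GCGTG 47 to 43 bases before it. Among 32851 promoter windows of this length, 6.02% held CACGTG, 16.6% ACGTG, 28.2% GCGTG and 10.2% TGACNNNGC. A match describes the letters only.

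Levels are in FPKM, a count of fragments scaled to transcript length and library size, which allow levels to be compared between genes per unit of length. Sequencing depth, judged from the smallest steps between low FPKM values, was about 34.5 to 58 M (mega) fragments per library, which is approximate because the steps were smeared. The tumours expressed the epithelial markers Krt8, Krt18 and Epcam at medians of 315, 338 and 281 FPKM, and none of these was at 0 in any library. Vehicle replicate 3 stood apart. It had 11361 genes at or over 1 FPKM, where the other 15 libraries had 13107 to 14784, and the median gene there lay at -0.76 on the log2 scale from its median over libraries, against -0.13 to 0.15 elsewhere. It also held the lowest value of 8 of the 9 autophagy genes, all except Ulk1. For the 9 genes, differences from vehicle that are described gene by gene are therefore also given without it. For other genes of the pathway only the number of calls is.

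Sqstm1 was the most abundant of the 9 transcripts, with a median of 93.9 FPKM over the 16 tumours (43.4 to 121). Map1lc3a followed at 58.9 FPKM (29.5 to 88.3), then Bnip3l at 33.8 (15.2 to 41.7), Becn1 at 27.4 (15.02 to 37.3) and Pink1 at 25.6 (16.6 to 34.7). Atg5 at 10.6 FPKM (3.18 to 22.7), Ulk1 at 9.07 (5.23 to 20.8), Atg7 at 8.01 (4.19 to 9.11) and Atg12 at 7.21 (1.79 to 9.58) formed a lower group. Pink1 exceeded Atg5 in 16 of 16 tumours and Map1lc3a exceeded Bnip3l in 16 of 16, whereas Becn1 exceeded Pink1 in 10 and Atg7 exceeded Atg12 in 9, so the neighbours in these last pairs did not differ beyond their spread. Over all 16 tumours the highest value was 7.13-fold the lowest in Atg5, the most of the 9, and 2.08-fold in Pink1, the least. Both lowest values were those of vehicle replicate 3, and both ranks depend on that library. The next lowest values were 7.004 FPKM for Atg5 and 20.7 FPKM for Pink1. Ulk1, lowest in sonidegib replicate 4, had 3.98-fold.

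**Figure D1:**
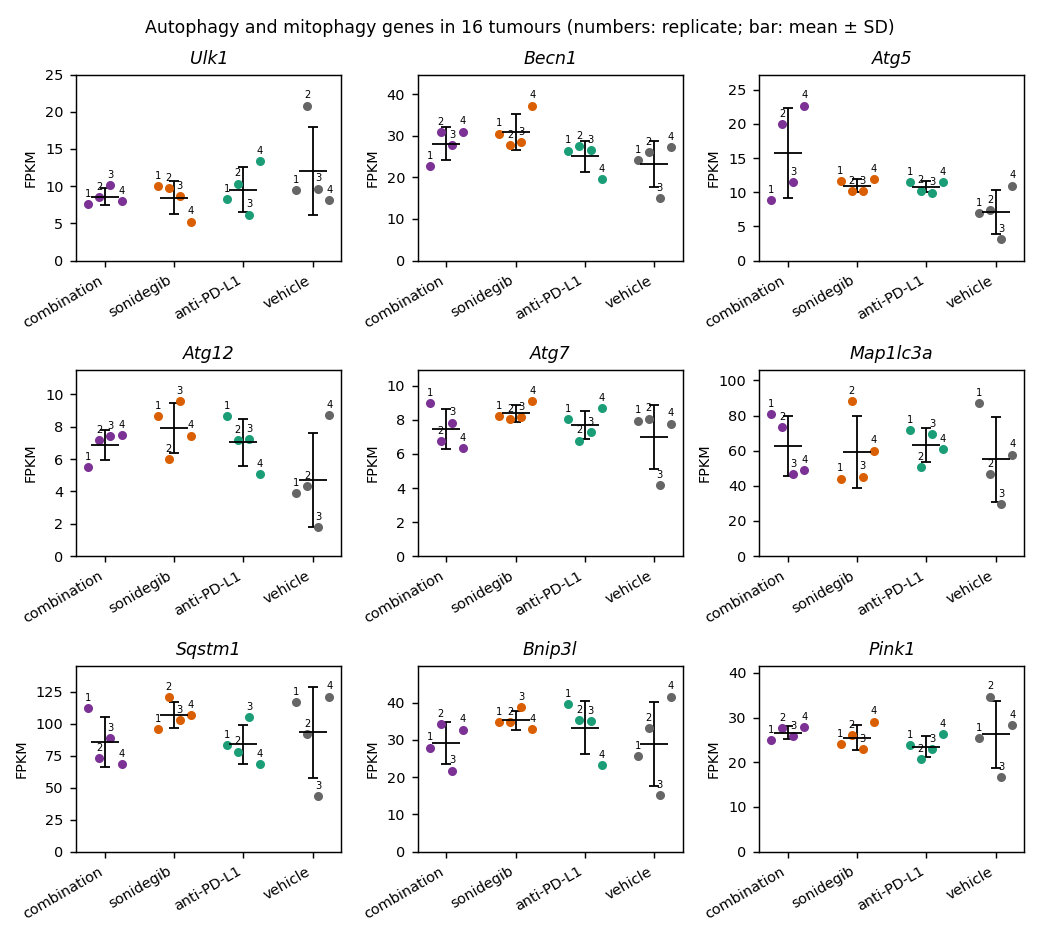
FPKM (vertical axis, from 0) of the 9 genes in each tumour, by treatment group. Points are tumours labelled with their replicate number and bars give the mean ± SD of 4. Atg5 in combination replicates 2 and 4 (19.9 and 22.7 FPKM) lies above the other 14 tumours, and Ulk1 in vehicle replicate 2 (20.8 FPKM) above all others.

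Across the 4 groups, none of the 9 genes passed limma's F test at an adjusted p of 0.05. The lowest p-values belonged to Atg5 (adjusted p = 0.168) and Atg12 (adjusted p = 0.235). At an unadjusted p under 0.05 there was 1 gene of the 9, Atg5. In the whole table limma called 3 genes of 15105 (0.0199%), and 23.7% had an unadjusted p under 0.05. All log2 values that follow are differences on the log2(FPKM + 1) scale, which understates the change of low genes, each with its standard error (SE).

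Among genes of the start of autophagy, Ulk1, the initiating kinase, had 7.62, 8.51, 10.2 and 7.95 FPKM in the combination tumours of replicates 1 to 4. It had 10.01, 9.78, 8.68 and 5.23 FPKM in the sonidegib group, 8.31, 10.3, 6.19 and 13.3 under anti-PD-L1 and 9.47, 20.8, 9.68 and 8.13 in vehicle tumours. Vehicle replicate 2 was more than all other tumours, and the remaining vehicle values lay within the range of the treated tumours. The differences from vehicle were -0.36 (SE 0.28, adjusted p = 0.384) for the combination, -0.41 (SE 0.28, adjusted p = 0.334) for sonidegib and -0.26 (SE 0.28, adjusted p = 0.584) for anti-PD-L1. None passed the threshold, and without vehicle replicate 2 they were -0.08, -0.13 and 0.02. They were -0.43, -0.47 and -0.32 without vehicle replicate 3. With median-of-ratios scaling, which centres the libraries on each other, they were -0.69 (adjusted p = 0.0878), -0.82 (adjusted p = 0.157) and -0.66 (adjusted p = 0.197), and with quantile normalization -0.66, -0.77 and -0.59, again with no call. Removing the trend on gene GC content in each library gave 0.07 for the combination (adjusted p = 0.886 by limma). Over the 7 settings other than the one reported, the range was -0.82 to -0.13 for sonidegib and -0.66 to 0.08 for anti-PD-L1. Ulk1 (ENSMUSG00000029512.11) lies at chr5:110784488-110810097 of GRCm38 on the minus strand.

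Becn1, which encodes Beclin 1 of the lipid kinase complex, had 30.5, 27.8, 28.5 and 37.3 FPKM in the sonidegib tumours, against 24.2, 26.1, 15.02 and 27.2 FPKM in the vehicle tumours. The 4 sonidegib values lay above the 4 vehicle values, and this was the 1 case among the 9 genes and 5 pairwise comparisons in which groups did not overlap. In the same comparison 6% of all tested genes lay wholly higher with sonidegib and 0.265% wholly lower. In the other comparisons the shares were 3.12% and 1.27% for the combination against vehicle, 3.39% and 0.477% for anti-PD-L1 against vehicle, 1.36% and 2.48% for the combination against anti-PD-L1, and 0.483% and 2.44% for the combination against sonidegib. The log2 difference was 0.43 (SE 0.23, 95% interval -0.05 to 0.91), and limma did not call it (adjusted p = 0.22). The exact two-sided permutation test gave p = 0.0286, the smallest that 4 against 4 tumours allow, as 1 of 45 such tests and without adjustment. With median-of-ratios scaling the difference was 0.01, with quantile normalization 0.10, and without vehicle replicate 3 it was 0.25 (adjusted p = 0.482). The combination tumours had 22.7, 30.95, 27.8 and 30.99 FPKM and the anti-PD-L1 tumours 26.4, 27.5, 26.6 and 19.5, both overlapping vehicle. Their differences from vehicle were 0.29 (adjusted p = 0.381) and 0.13 (adjusted p = 0.743), and 0.11 and -0.06 without vehicle replicate 3. Becn1 (ENSMUSG00000035086.13) lies at chr11:101285952-101302286 on the minus strand and overlaps Cntd1 on the opposite strand, which had at most 0.228 FPKM.

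Atg5, the acceptor of ATG12 in the conjugate, was the 1 gene of the 9 that passed in a comparison with vehicle. It had 8.81, 19.9, 11.5 and 22.7 FPKM in the combination tumours, 11.6, 10.1, 10.2 and 11.9 in the sonidegib group, 11.5, 10.2, 9.93 and 11.5 under anti-PD-L1 and 7.004, 7.34, 3.18 and 10.97 in vehicle tumours. Combination replicates 2 and 4 were above every other tumour, combination replicates 1 and 3 lay near the tumours given 1 drug, and combination replicate 1 was below vehicle replicate 4, so the groups overlapped. The means were 15.7 ± 6.64 FPKM with the combination and 7.12 ± 3.18 with vehicle (SD, n = 4 each). Atg5 rose by 1.05 on the log2 scale (SE 0.30, 95% interval 0.42 to 1.67, adjusted p = 0.0388 by limma). The exact two-sided permutation test gave p = 0.0571 without adjustment, which is not under 0.05. In this comparison 1559 of 15105 genes (10.3%) were called higher and 144 (0.953%) lower, 11.3% in either direction, so 1 call among 9 genes is near the share of all genes. The median gene differed by 0.26, a shift that scaling removes. With median-of-ratios scaling Atg5 differed by 0.75 (adjusted p = 0.0403), while the calls over all genes were 1477 higher and 1137 lower. Against vehicle, the Atg5 differences were 0.65 (SE 0.30, adjusted p = 0.171) for sonidegib and 0.63 (SE 0.30, adjusted p = 0.202) for anti-PD-L1, neither past the threshold. They were 0.36 and 0.34 without vehicle replicate 3, and with median-of-ratios scaling 0.28 and 0.26. Atg5 (ENSMUSG00000038160.7) lies at chr10:44268358-44364291 on the plus strand.

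The call of Atg5 lay near the threshold and held in 7 of the 16 fits with 1 tumour left out. Without vehicle replicate 3 the difference was 0.76 (adjusted p = 0.118), without combination replicate 2 it was 0.91 (adjusted p = 0.15) and without combination replicate 4 it was 0.85 (adjusted p = 0.15). It was also not called without vehicle replicate 1 (adjusted p = 0.0639), vehicle replicate 2 (adjusted p = 0.0797), combination replicate 3 (adjusted p = 0.0535), anti-PD-L1 replicate 1 (adjusted p = 0.0503), anti-PD-L1 replicate 2 (adjusted p = 0.0503) or sonidegib replicate 3 (adjusted p = 0.0501). The adjusted p was 0.00543 without vehicle replicate 4 and 0.00572 without combination replicate 1. The calls of the whole table moved too, from 1703 with all tumours to 4953 and 4245 in these last fits. They fell to 10, 6 and 3 without vehicle replicates 1, 2 and 3, and to 8 and 3 without combination replicates 2 and 4. With the trend on gene GC content removed in each library the difference was 0.75 (adjusted p = 0.0714).

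**Figure D2:**
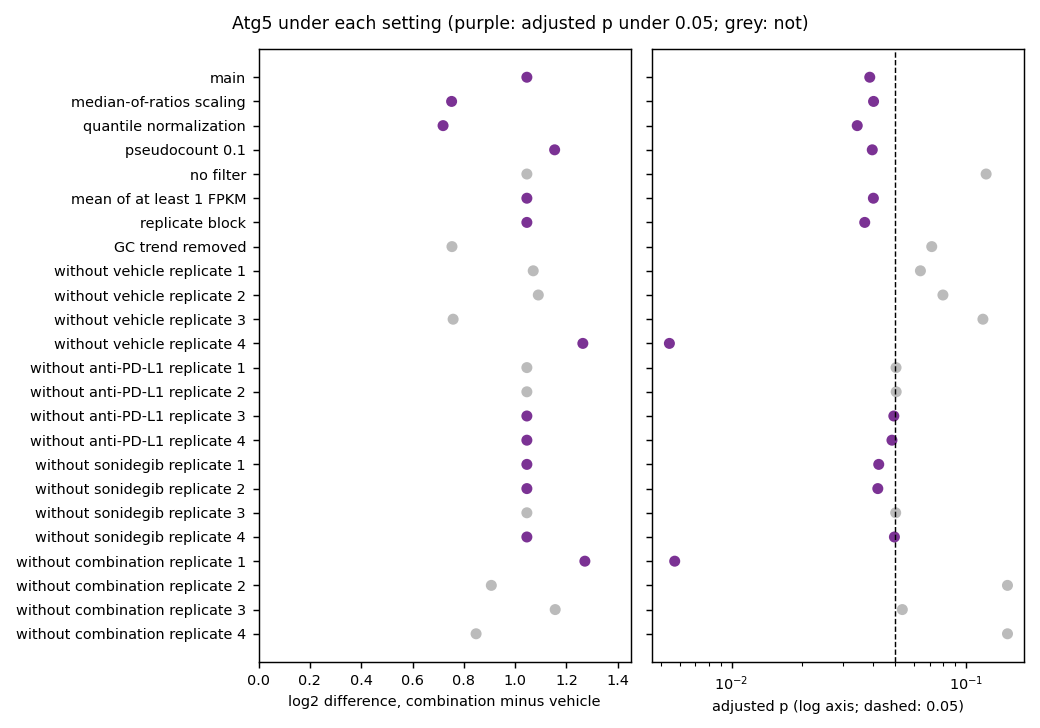
Log2 difference of Atg5 between combination and vehicle (left, from 0) and its adjusted p (right, log axis, dashed line at 0.05) under each setting and with each tumour left out. Purple points passed the threshold and grey points did not; the difference lay between 0.72 and 1.27 in all 24 fits.

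Atg12, the ubiquitin-like protein of the conjugate, had 5.51, 7.19, 7.41 and 7.46 FPKM with the combination, 8.65, 5.98, 9.58 and 7.45 in the sonidegib group, 8.63, 7.15, 7.23 and 5.08 under anti-PD-L1 and 3.91, 4.32, 1.79 and 8.70 in vehicle tumours. In 3 vehicle tumours it was lower than in all 12 treated tumours, while vehicle replicate 4 lay among the highest. The differences from vehicle were 0.61 (SE 0.29, adjusted p = 0.146) for the combination, 0.77 (SE 0.29, adjusted p = 0.133) for sonidegib and 0.62 (SE 0.29, adjusted p = 0.194) for anti-PD-L1, none past the threshold. Without vehicle replicate 4 all 3 passed, at 0.91 (adjusted p = 0.0109), 1.08 (adjusted p = 0.00936) and 0.92 (adjusted p = 0.0142). Leaving out that tumour, Atg5 passed too, at 1.26 for the combination, 0.87 for sonidegib (adjusted p = 0.0382) and 0.85 for anti-PD-L1 (adjusted p = 0.0417), and 4953, 3980 and 3929 genes were called in the whole table. The 3 comparisons share the vehicle tumours. Without vehicle replicate 3, the Atg12 differences were 0.31, 0.48 and 0.32, and with median-of-ratios scaling 0.35, 0.43 and 0.28, with no call.

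Atg7, which activates both ATG12 and LC3, was the steadiest of the conjugation genes. Its means were 7.48 ± 1.18 FPKM with the combination, 8.39 ± 0.486 in the sonidegib group, 7.71 ± 0.834 under anti-PD-L1 and 7.001 ± 1.88 with vehicle (SD, n = 4 each). Vehicle replicate 3, at 4.19 FPKM, was below the other 15 tumours, which lay between 6.34 and 9.11. Its difference from vehicle was 0.11 for the combination (SE 0.21, 95% interval -0.32 to 0.54, adjusted p = 0.735), and -0.09 without vehicle replicate 3. Atg7 (ENSMUSG00000030314.16) lies at chr6:114643097-114860614 on the plus strand and holds 3 pseudogenes, which reached at most 0.501 FPKM.

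Map1lc3a, an LC3 protein that is joined to the autophagosome membrane, had 80.8, 73.7, 46.8 and 49.2 FPKM with the combination, 44.1, 88.3, 45.3 and 60.02 in the sonidegib group, 71.6, 50.6, 69.6 and 61.1 under anti-PD-L1 and 86.99, 46.5, 29.5 and 57.8 in vehicle tumours. High and low tumours occurred in every group, and all groups overlapped. The difference between combination and vehicle was 0.24 (95% interval -0.43 to 0.92, adjusted p = 0.627), and removing the GC trend gave 0.84 (adjusted p = 0.0923). The gene (ENSMUSG00000027602.9) lies at chr2:155276297-155278073 on the plus strand, and its longest transcript has a GC content of 63.1%. Without vehicle replicate 3 the difference was -0.02.

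Sqstm1, the p62 cargo receptor, had 112, 73.2, 88.9 and 68.4 FPKM with the combination, 96.05, 121, 103 and 107 in the sonidegib group, 83.5, 78.3, 105 and 68.5 under anti-PD-L1 and 117, 91.8, 43.4 and 121 in vehicle tumours. The vehicle tumours alone spanned the ranges of the 3 treated groups. The differences from vehicle were -0.05 (95% interval -0.69 to 0.60) for the combination, 0.29 (-0.35 to 0.93) for sonidegib and -0.07 (-0.71 to 0.58) for anti-PD-L1, with adjusted p = 0.934, 0.528 and 0.907 in this order. The intervals for the combination and anti-PD-L1 each include 0.5 in both directions, so a level p62 transcript is not shown. Without vehicle replicate 3 the differences were -0.37, -0.04 and -0.39, with no call. Sqstm1 (ENSMUSG00000015837.15) lies at chr11:50199366-50210827 on the minus strand, with Mrnip (at most 1.52 FPKM) overlapping its end on the other strand.

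The mitophagy genes Bnip3l and Pink1 passed no test. Bnip3l, the NIX receptor, had 27.98, 34.4, 21.8 and 32.8 FPKM with the combination, 34.7, 34.8, 38.8 and 32.9 in the sonidegib group, 39.6, 35.4, 35.1 and 23.2 under anti-PD-L1 and 25.6, 33.2, 15.2 and 41.7 in vehicle tumours. Its difference between combination and vehicle was 0.08 (SE 0.28, 95% interval -0.50 to 0.67, adjusted p = 0.862), with -0.25 under median-of-ratios scaling and -0.18 without vehicle replicate 3. Over the same tumours the summed level of 8 listed hypoxia genes was 1260, 438, 379 and 539 FPKM in combination replicates 1 to 4. With vehicle it was 632 to 1353 FPKM, so combination replicates 2, 3 and 4 lay below every vehicle tumour. So did sonidegib replicates 1 (615 FPKM) and 4 (561 FPKM), in a group that reached 1449 FPKM. Under anti-PD-L1 the sum was 746 to 1186 FPKM. Pink1, the mitochondrial kinase, had means of 26.6 ± 1.40 FPKM with the combination, 25.5 ± 2.72 in the sonidegib group, 23.5 ± 2.34 under anti-PD-L1 and 26.2 ± 7.49 with vehicle (SD, n = 4 each). Its SD was widest with vehicle, where replicate 2 had 34.7 FPKM and replicate 3 had 16.6. Its difference between combination and vehicle was 0.06 (95% interval -0.40 to 0.53, adjusted p = 0.867), and -0.13 without vehicle replicate 3. Bnip3l (ENSMUSG00000022051.15) lies at chr14:66985239-67008877 and Pink1 (ENSMUSG00000028756.12) at chr4:138313409-138326307, both on the minus strand.

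**Figure D3:**
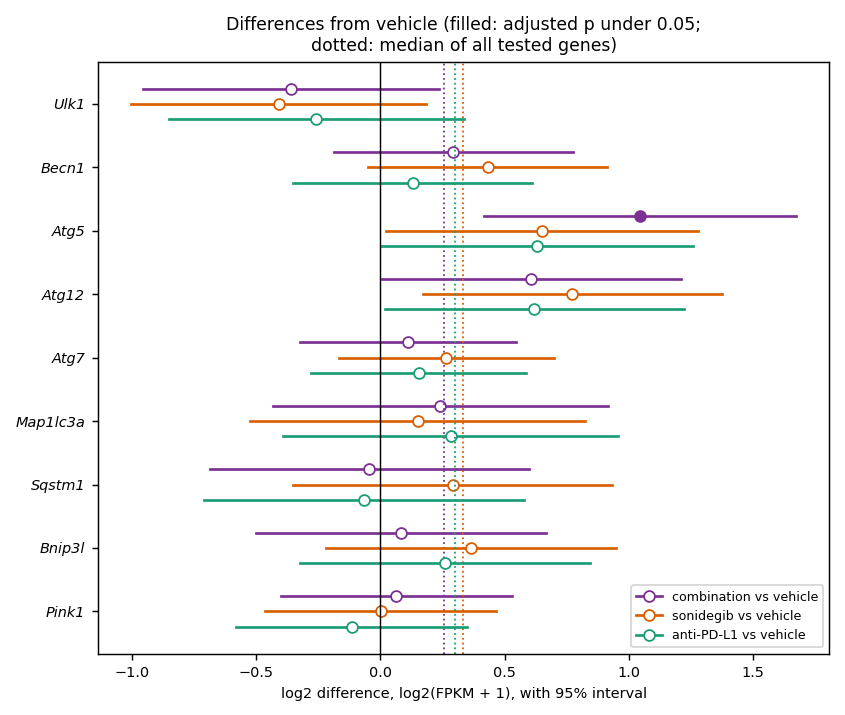
Log2 difference of each gene from vehicle with its 95% interval, for the combination (purple), sonidegib (orange) and anti-PD-L1 (green). Filled points passed an adjusted p of 0.05, which Atg5 in the combination did; dotted lines show the median of all tested genes (0.26, 0.33 and 0.30), which the intervals include except those of Atg5 and Ulk1 for the combination and of Ulk1 for sonidegib.

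As counts, 1 of 9 was called with the combination against vehicle, and 0 of 9 with sonidegib or anti-PD-L1 against vehicle. Limma called 0% of all tested genes in both single-drug comparisons, and 27.3% and 24.6% had an unadjusted p under 0.05. At that level 2 of the 9, Atg5 and Atg12, passed in each of the 3 comparisons with vehicle, against 33.6% of all genes in the combination. The median log2 difference of the 9 genes was 0.11 for the combination, 0.29 for sonidegib and 0.15 for anti-PD-L1, and over all tested genes it was 0.26, 0.33 and 0.30. The median of the 9 less that of all genes was -0.15, -0.04 and -0.15, and without vehicle replicate 3 it was -0.16, -0.08 and -0.16. It was above 0 in 2, 5 and 1 of 23 alternatives and otherwise not. The ranges were -0.23 to 0.10 for the combination, -0.14 to 0.27 for sonidegib and -0.22 to 0.13 for anti-PD-L1. The highest value of each range came from the fit with no filter, where the median of all genes covers more genes.

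The design also sets the combination beside each single drug. Against anti-PD-L1 alone, the combination tumours differed by 0.41 in Atg5 (SE 0.30, 95% interval -0.21 to 1.04, adjusted p = 0.869), and 0 of 9 genes passed, against 0.00662% of all genes. The other 8 differences were between -0.18 and 0.18. Against sonidegib alone, Atg5 differed by 0.40 (95% interval -0.23 to 1.02, adjusted p = 0.959), Sqstm1 by -0.34 and Bnip3l by -0.28. None of the 9 passed by limma here, nor at an unadjusted p under 0.05 in either comparison, where 5.78% and 4.28% of all genes did. In the interaction of the drugs, the excess of the combination over the sum of the single-drug differences, 0 of 9 passed (0.00662% of all genes) and 0 had an unadjusted p under 0.05 (9.88% of all genes). Atg12 had the lowest p, at -0.79 (SE 0.41, adjusted p = 0.485), and Atg5 had -0.24 (SE 0.42, adjusted p = 0.797).

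Several measures of the libraries moved with Atg5, and some of them with Atg12. The GC slope of a library is the slope of the log2 deviation of its genes on their GC content, per unit of GC fraction. It was -3.60 and -2.98 in combination replicates 4 and 2, where Atg5 was highest, and 3.57 to 4.82 in vehicle replicates 1, 2 and 3. It was 2.40 in combination replicate 1 and -0.26 in vehicle replicate 4. Not every tumour followed this order. Combination replicate 3 had a slope of -2.57 with Atg5 at 11.5 FPKM, and sonidegib replicate 2 a slope of 3.00 with Atg5 at 10.1 FPKM. The longest Atg5 and Atg12 transcripts have a GC content of 44.6% and 44.3%. Over the 16 tumours, which share the treatment groups and their sample order, Pearson's r with the GC slope was -0.80 for Atg5 (Spearman's rho -0.81) and -0.74 for Atg12 (rho -0.66). With the median log2 deviation of the library, r was 0.73 for Atg5 (rho 0.51) and 0.87 for Atg12 (rho 0.69). With the number of genes at or over 1 FPKM it was 0.68 for Atg5 (rho 0.51) and 0.87 for Atg12 (rho 0.64). The summed FPKM of mitochondrially encoded genes was 44952 and 40978 in combination replicates 2 and 4, and 6450 to 33433 in the other 14. Of the 5 listed T cell markers, all above 0 in every library, only 2 passed the filter. Cd3e, Cd3d and Cd2 were low, with medians of 0.334, 0.251 and 0.295 FPKM. The 5 markers had summed levels in combination tumours of 15.6 (replicate 2), 12.2 (replicate 3), 19.1 (replicate 4) and 1.48 FPKM (replicate 1). With vehicle the sums were 0.449 to 2.18 FPKM. Under anti-PD-L1 they were 2.96 to 6.79 FPKM, above every vehicle tumour, and in the sonidegib group 0.817 to 5.11 FPKM. Atg5 was at 9.93 to 11.5 FPKM under anti-PD-L1 and 10.1 to 11.9 FPKM in the sonidegib group. Pearson's r with the T cell sum was 0.73 for Atg5 (rho 0.59) and 0.32 for Atg12 (rho 0.41). With the mitochondrial sum it was 0.83 for Atg5 and 0.58 for Atg12, but by rank the genes were alike (rho 0.63 and 0.60). In bulk tissue, fewer cells of a type and less RNA per cell cannot be told apart, and the part of T cells and mitochondrial RNA in the Atg5 values was not tested.

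**Figure D4:**
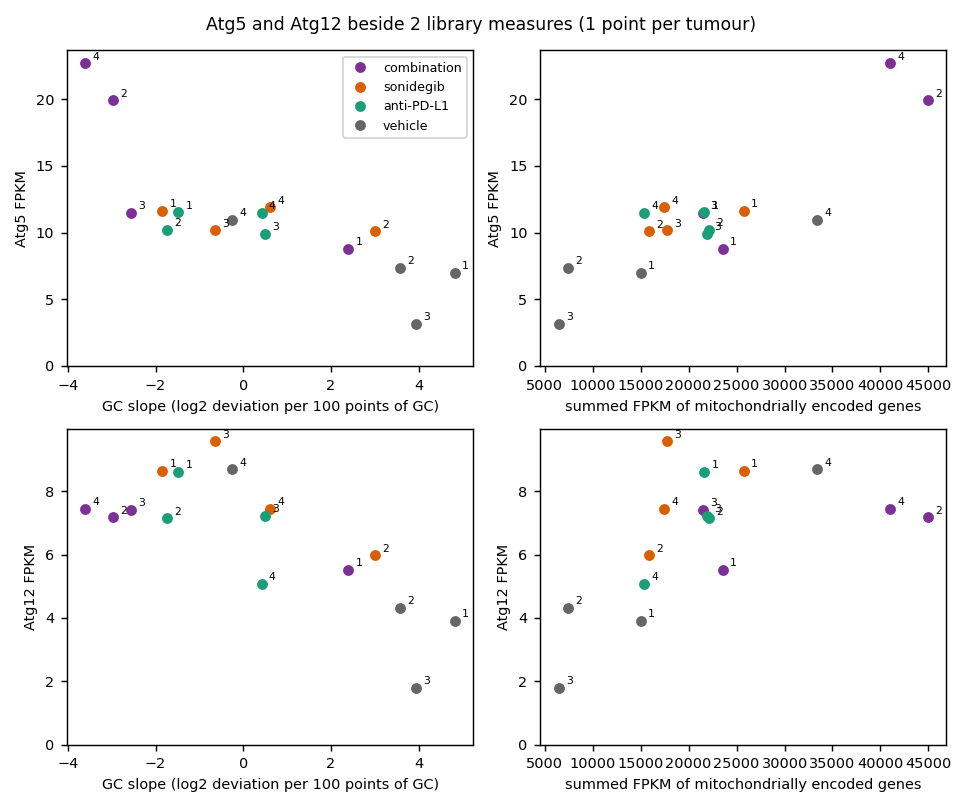
FPKM of Atg5 (upper row) and Atg12 (lower row) against the GC slope of the library (left) and the summed FPKM of mitochondrially encoded genes (right), 1 point per tumour with its replicate number. Combination replicates 2 and 4 combine the highest Atg5 with the highest mitochondrial sums, and vehicle replicates 1 to 3 combine low Atg5 with GC slopes of 3.57 to 4.82.

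The 9 genes did not vary as a block. The closest pairs over the 16 tumours were Atg12 with Bnip3l (Pearson's r 0.80, Spearman's rho 0.64), Becn1 with Atg12 (0.79 and 0.67), Sqstm1 with Atg7 (0.78 and 0.42) and Atg5 with Atg12 (0.76 and 0.62). Without vehicle replicate 3, which was low in all of these, Pearson's r was 0.58, 0.55, 0.49 and 0.49 over 15 tumours. Sqstm1 and Atg5 had an r of 0.17 over 16 tumours and of -0.63 without vehicle replicate 3. Ulk1 had a negative r with 7 of the 8 others, from -0.36 with Atg12 to -0.02 with Atg7. These values describe tumours that share libraries and groups. Among all tested genes, those whose log2 levels were most like Atg5 over the 16 tumours included Uqcrc2 (Pearson's r 0.99), Mrps18c (0.99), Wdr61 (0.99) and Cox7b (0.98). Uqcrc2 and Cox7b encode respiratory chain subunits, and their GC contents of 44.4% and 42% are close to that of Atg5.

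Outside the 9 genes, 65 others of the pathway, listed by role, were all expressed above the filter. With the combination against vehicle 8 of them were called, 7 higher and 1 lower (12.3%, against 11.3% of all tested genes), and 0 of 65 were called with sonidegib or anti-PD-L1 against vehicle or in the other comparisons. At an unadjusted p under 0.05 limma had 22 of them (33.8%, against 33.6% of all tested genes) for the combination against vehicle, 12 (18.5%, against 27.3%) for sonidegib against vehicle and 10 (15.4%, against 24.6%) for anti-PD-L1 against vehicle. It had 5 (7.69%, against 5.78%) for the combination against anti-PD-L1, 1 (1.54%, against 4.28%) for the combination against sonidegib and 3 (4.62%, against 9.88%) for the interaction. Across the 4 groups the lowest p-values among them were those of Vmp1, Lamp2 and Atg3 (adjusted p = 0.162 each by limma's F test). The median log2 difference of the 65 genes with the combination was 0.05, under the 0.26 of all tested genes. Of 16 membrane supply and conjugation genes 3 rose. These were Vmp1, an endoplasmic reticulum protein needed for autophagosome growth, at 1.47 (SE 0.40, adjusted p = 0.0369), Atg3, the enzyme that transfers LC3 to lipid, at 1.22 (SE 0.32) and the LC3 protease Atg4a at 1.02 (SE 0.29). Atg3 was at 12.5 ± 5.35 FPKM with the combination and 4.88 ± 2.58 with vehicle (SD, n = 4 each).

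The largest rise of the 65 was in Lamp2, a membrane protein of lysosomes, which was at 126 ± 58.1 FPKM with the combination and 42.4 ± 24.8 with vehicle (SD, n = 4 each; log2 difference 1.60, SE 0.40, adjusted p = 0.0357). It was 1 of 13 lysosome genes to pass. Of 13 cargo and mitophagy receptors, Fundc1, a receptor on the outer mitochondrial membrane, rose by 1.33 (SE 0.37, adjusted p = 0.0372), and Bnip3, the closest relative of Bnip3l, had -0.35 (adjusted p = 0.528). Of 11 initiation genes, Nrbf2, a subunit of the lipid kinase complex, rose by 0.67 (SE 0.20), while 0 of the 3 LC3 relatives passed, among them Gabarap at 0.68 (adjusted p = 0.16). Of 9 mTORC1 and AMPK regulators, Sesn1 rose by 0.77 (SE 0.23) and Ddit4, a stress and hypoxia gene whose protein restrains mTORC1, fell to 32.8 ± 19.4 FPKM with the combination, against 62.7 ± 8.49 with vehicle (log2 difference -1.06, SE 0.33, adjusted p = 0.0448).

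The balance of higher and lower calls depended on scaling. With median-of-ratios scaling 21 of the 65 genes (32.3%) were called, 8 higher and 13 lower, and the median difference of the 65 was -0.21. Under the same scaling 2614 of 14874 tested genes (17.6%) were called, 1477 higher and 1137 lower. The 7 genes that rose kept their calls, and Rb1cc1, a subunit of the ULK1 complex, joined them at 0.94 (adjusted p = 0.0479). Ddit4 (-1.40) was joined by 12 others, among which the furthest from 0 was Rptor, the mTORC1 scaffold, at -1.66 (adjusted p = 0.0334), with Atg4d at -0.89 and the autophagy regulator Ambra1 at -0.77. The count of calls was 0 of the 62 genes with a GC value once the GC trend was removed, with Lamp2 at 1.17 (adjusted p = 0.0524), Vmp1 at 1.13 (0.0524), Atg3 at 0.80 (0.0631) and Ddit4, which moved furthest in proportion, at -0.63 (0.135). Atg4a had no GC value and was not in that fit, in which 641 of 14618 genes were called. The calls among the 65 genes moved with those of the whole table when 1 tumour was left out. They were 0 without any 1 of vehicle replicates 1, 2 and 3 or combination replicates 2 and 4. In those fits 3 to 10 genes of the whole table were called. Without combination replicate 3 there was 1 call (514 in the whole table). There were 5 without anti-PD-L1 replicate 1 or sonidegib replicate 3 or 4 (1031 to 1082 in the whole table). There were 17 without combination replicate 1 (4245 in the whole table) and 19 without vehicle replicate 4 (4953).

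**Figure D5:**
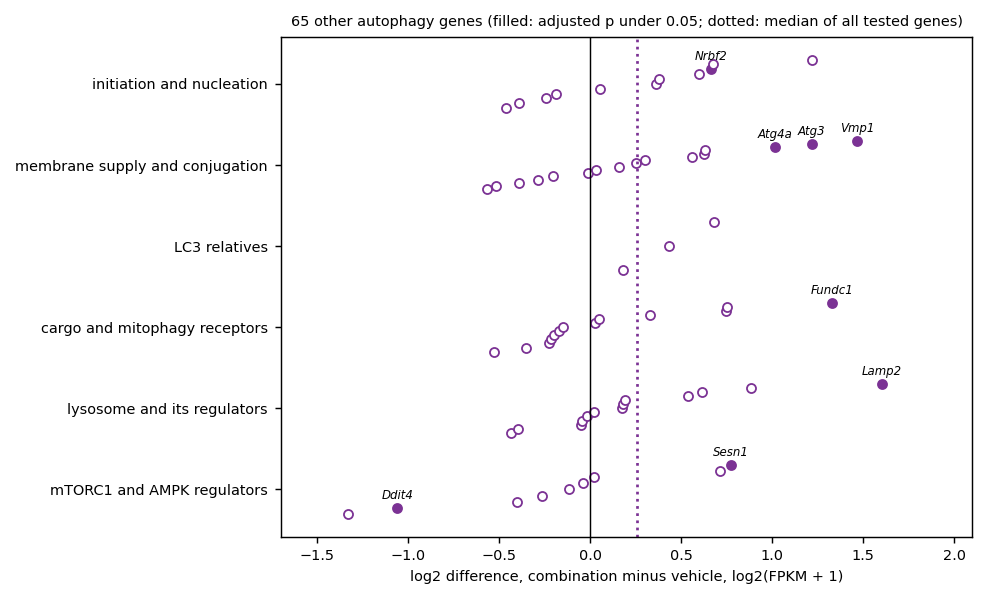
Log2 difference between combination and vehicle of 65 other autophagy genes, 1 point per gene, by list. Filled points with a name passed an adjusted p of 0.05 (7 higher, 1 lower); the dotted line is the median of all tested genes, 0.26.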

How the data were processed

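The authors deposited FPKM values, 1 column per library. Per the submitters' processing notes, TopHat and Cufflinks were used with the builds GRCm38.p6 and mm10; no version is known here. Per the labels, library preparation removed ribosomal RNA and kept strand, while another label names polyadenylated RNA, which was not resolved. Columns were matched to libraries by the S number in each description; these numbers run through the groups in turn, so library order and treatment cannot be told apart. In FPKM a very abundant transcript lowers all others, and fragments of overlapping genes are shared out by Cufflinks' model.

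The 15105 genes that reached 1 FPKM in 4 or more libraries were transformed to log2(FPKM + 1) without scaling. All 16 libraries entered a single limma model (version 3.58.1, R 4.3.3) with a mean for each group, robust variances and a trend on expression. Tests were two-sided, and Benjamini-Hochberg adjustment ran over all tested genes in each comparison at a threshold of 0.05. Because the fit shares 1 estimate of the spread, leaving out a library of another group can move a p-value. The script was tested on simulated data. The members, companion lists, tests and alternatives were chosen with earlier results of these data known. All 9 members found are named. Companion genes were named by rule as the 6 largest rises and falls among those past the threshold; Nrbf2, the genes named under another scaling, Bnip3 and Gabarap were chosen after their values were seen. Likeness to Atg5 was ranked by Pearson's r of log2(FPKM + 1), and the 5 highest were taken, of which 1 is not reported here. Positions, GC content of the longest transcript and overlaps come from GENCODE M21 (GRCm38); 53913 identifiers matched with their version. Whole fragments could not be recovered, so the depth is approximate: 4908 genes with 1 transcript over 2000 bases were used after subtracting 200 bases, and 29.8% to 39.6% of low values lay within 0.1 of a whole fragment. With 4 libraries per group, the spread between tumours limits the precision.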

Additional observations from a re-analysis of the deposited data

Results flagged for a closer look

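Of 36 sets of 4 tumours (9 genes in 4 groups), 5 held a tumour far from the other 3, by the ratio of its gap to the range against Dixon's 95% critical value. Chance gives about 1 in 20 such sets. Ulk1 was 20.8 FPKM in vehicle replicate 2, against 8.13 to 9.68 in the other vehicle tumours. Atg7 was 4.19 FPKM in vehicle replicate 3, against 7.78 to 8.07, and 9.11 FPKM in sonidegib replicate 4, against 8.06 to 8.22. Atg12 was 5.51 FPKM in combination replicate 1, against 7.19 to 7.46. Becn1 was 19.5 FPKM in anti-PD-L1 replicate 4, against 26.4 to 27.5.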

How the results depend on the processing

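The 7 settings other than the one reported and the omission of each of the 16 libraries were tried. The number of the 9 genes called between combination and vehicle was 0 with no filter or after removal of the GC trend, and 0 to 2 when 1 library was left out. It was also 0 to 2 across the 4 groups, for sonidegib against vehicle and for anti-PD-L1 against vehicle with 1 library left out, and in the comparisons with vehicle the 2 were Atg5 and Atg12 without vehicle replicate 4. In the whole table the calls between combination and vehicle numbered 1703, against 2614 with median-of-ratios scaling, 2634 with quantile normalization, 8 with no filter, 641 after removal of the GC trend, and 3 to 4953 when 1 library was left out. Across the 4 groups they numbered 3, and 0 with either scaling, with a pseudocount of 0.1 or with the replicate block, and 0 to 3331 with 1 library left out. Between combination and anti-PD-L1 the 1 call became 0 with either scaling, the pseudocount of 0.1, the replicate block or the GC trend removed, 3 with no filter, and 0 to 216 with 1 library left out. The 1 call of the interaction became 0 with either scaling, the pseudocount of 0.1, no filter, the filter on a mean of 1 FPKM or the replicate block, and 0 to 5 with 1 library left out. With 1 library left out the calls were 0 to 3980 for sonidegib against vehicle, 0 to 3929 for anti-PD-L1 against vehicle and 0 to 117 for combination against sonidegib. Of the 65 companion genes, whose alternatives were chosen after seeing the data, 21, 20, 0, 5 and 0 were called with median-of-ratios scaling, quantile normalization, no filter, the replicate block and removal of the GC trend, and 0 to 19 when 1 library was left out. The cause of these changes was not tested, except that tests without the filter cover more genes.

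The labels number the tumours 1 to 4 in each group and state no shared source. Deviations from the group means correlated between same-numbered tumours at -0.43 to 0.34, with 4 of 24 pairs over 0.1, so the numbers were not taken to pair the tumours. With the replicate block Atg5 was called at an adjusted p = 0.037, the calls between combination and vehicle were 1177, and the block gave 0 calls of the 9 genes in the other comparisons. No called difference changed sign under any alternative. With median-of-ratios scaling, the differences between combination and vehicle that had not passed turned to -0.19 for Atg7, -0.04 for Becn1, -0.25 for Bnip3l, -0.10 for Map1lc3a and -0.27 for Pink1. At the estimated depths a single fragment of a 2000-base transcript corresponds to 0.00958 to 0.0161 FPKM, below the lowest value of the 9 genes, so all 9 were detectable in every library.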
